A study of Mus musculus with 8 samples.

Results

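Hippocampal RNA of male C57BL/6J mice that had both mild treadmill exercise and an astaxanthin diet (AX+ME) was compared with that of sedentary mice on a placebo diet (SED). The comparison rests on 4 of the 8 arrays of the series, chosen by their labels: 2 of AX+ME and 2 of SED. In each group, replicate 1 was labelled with Cy3 and replicate 2 with Cy5, so every difference was also taken within a dye. The other groups, mild exercise on the placebo diet (ME) and astaxanthin without exercise (AX), have 2 arrays each and entered the model and the side-by-side values. All mice were wild type and entered the study at 11 weeks of age. Diet powder was mixed into the food at 0.5%, and in the astaxanthin groups 2% of that powder was astaxanthin. The labels state 8 mice per group and do not state how their RNA became 2 samples. P-values therefore measure only the spread between these samples, which may be technical.

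Astaxanthin is a red carotenoid that quenches reactive oxygen. Running of low intensity is known to raise the birth of new neurons in the dentate gyrus, the part of the hippocampus in which neurogenesis continues in adult life. Leptin is a hormone that fat cells secrete. Its receptor, Lepr, acts through the kinase Jak2 and the transcription factor Stat3, and Socs3 is a Stat3 target that shuts the signal off. The series is titled after hippocampal leptin and its part in neurogenesis and memory under the combined treatment.

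Levels are given as log2 of the signal over the array's 75th percentile, so 0 is the level of a probe at that percentile. The 75th percentile, taken over the spots of all array columns, was 1420 and 2045 on the SED arrays and 1964 and 2081 on the AX+ME arrays. Relative to that percentile, the median spot below array column 70 was at -3.63 and -3.64 on the SED arrays and at -3.49 and -3.39 on the AX+ME arrays, whereas from column 70 on it was at -3.50 and -3.44 against -3.46 and -3.47. Only the 34334 of 59305 spots from column 70 on were therefore used. Of these, between 66.4% and 73.0% were well above background on the 4 arrays. After filtering, 17770 genes and transcripts were tested, of which 10549 had a symbol. The arrays of a group correlated at 0.994 (SED) and 0.996 (AX+ME), and the arrays of a dye at 0.995 (Cy3) and 0.992 (Cy5), across genes, which are not independent replicates. The 6 measured genes of hippocampal neuron identity, among them Slc17a7 (the vesicular glutamate transporter of excitatory neurons) and Neurod2, were well above background on all 4 arrays.

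Most differences between AX+ME and SED were small. In both dyes, 5097 genes (28.7%) were higher and 7501 (42.2%) were lower in AX+ME, and the median difference was -0.04 (log2). That median still varied with array position: it was -0.11 in columns 70-89 and between -0.06 and -0.02 in the later blocks of columns. At least 1.5-fold differences the same way in both dyes were found for 203 genes higher (1.14%) and 100 lower (0.563%), against 31 (0.174%) that were 1.5-fold apart in opposite ways. The split turned with the scaling: it was 115 higher and 212 lower after quantile normalization, and 2 higher and 92 lower after normexp background correction, which moved the median of all genes to -0.22. Normexp here added an offset of 50 to each signal before scaling. The lowest signals well above background were 15.5 and 33.9 on the SED arrays, and 26.0 and 43.9 on the AX+ME arrays. Such an offset draws differences of dim probes towards the difference in scale between arrays. For dim probes a value under normexp is therefore partly set by the offset. Probes near background held many of the large differences. Of the 16835 genes well above background on all 4 arrays, 105 (0.624%) were 1.5-fold higher and 37 (0.22%) lower, whereas of the other 935 genes 98 (10.5%) were higher and 63 (6.74%) lower.

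**Figure D1:**
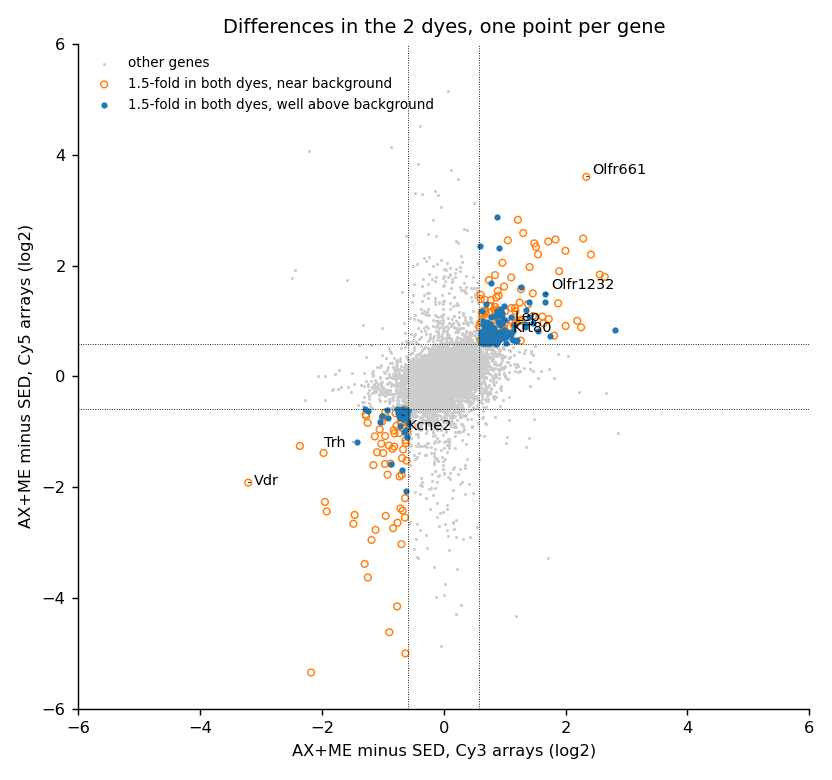
Differences between AX+ME and SED on the Cy3 arrays (horizontal axis, log2) and on the Cy5 arrays (vertical axis, log2), with a point for each of 17770 genes and transcripts. Dotted lines mark 1.5-fold; filled points passed it the same way in both dyes and were well above background on all 4 arrays (105 higher, 37 lower), and open circles passed it but were near background on at least 1 array (98 higher, 63 lower).

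In the limma model with a dye term, 3 transcripts (0.0169%) passed an adjusted p of 0.05, all 3 higher in AX+ME, and 0 (0%) were lower. Without adjustment, 2052 genes (11.5%) were higher and 3670 (20.7%) lower at p below 0.05. The next adjusted p, 0.0511, was shared by 345 genes, 116 higher and 229 lower. Differences of those genes are therefore given as values that missed the threshold. The number of calls depended on how the spread was estimated: with an intensity trend and robust moderation, limma called 1083 higher and 2380 lower.

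Olfr1232, an odorant receptor gene, rose in AX+ME. Its level was -5.60 and -5.45 in the SED samples and -3.94 and -3.96 in the AX+ME samples, with no overlap. The difference was 1.58 ± 0.058 (log2, SE), a 2.98-fold higher signal, with an adjusted p of 0.0232. Its levels in the single treatments lay between: -4.86 and -4.78 in ME, and -4.98 and -4.92 in AX. Krt80, a type II keratin of epithelial cells, also rose. It was at -3.20 and -3.04 in SED and at -2.19 and -2.02 in AX+ME, which did not overlap. The difference was 1.01 ± 0.045 (log2, SE), or 2.02-fold, with an adjusted p of 0.0369. In ME its level was -3.25 and -3.16, and in AX -2.88 and -2.73. The third call was an intergenic transcript that the array names by its place in build mm9, chr7:100195448-100195894, reverse strand. It was well above background on neither SED array (-6.76 and -6.88) and on both AX+ME arrays (-5.30 and -5.39), at least 1.83-fold higher, with an adjusted p of 0.0232. AX+ME and not SED let this transcript through the filter on dim probes, which favours a higher value in AX+ME. Its adjusted p is therefore weaker support than that of Olfr1232 or Krt80. None of these 3 calls was kept when any 1 of the 8 arrays was left out, when only the 4 SED and AX+ME arrays were fitted, or after quantile normalization. For Olfr1232 the difference ranged from 0.65, under normexp, to 1.64 over all alternatives, and its adjusted p from 0.0038 to 0.255. For Krt80 the ranges were 0.69 to 1.04, and 0.0018 to 0.255.

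**Figure D2:**
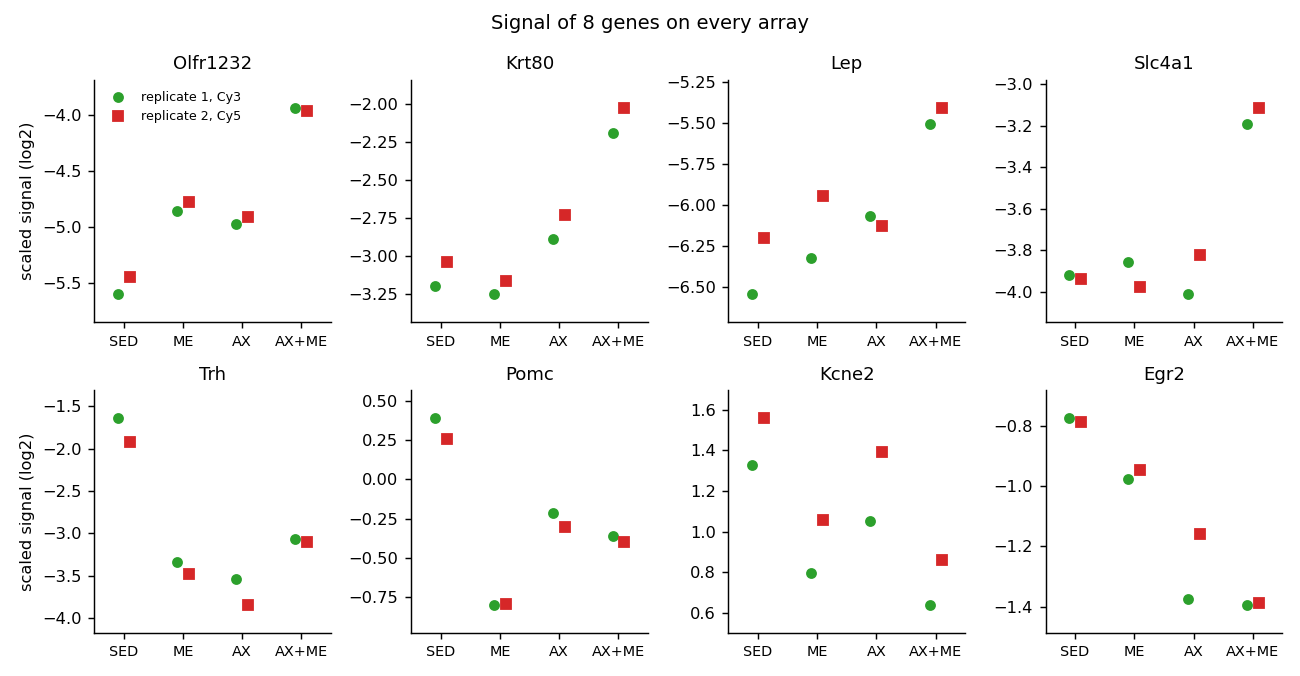
Scaled signal (vertical axes, log2, 0 is the array's 75th percentile; ranges differ between panels) of 8 genes on each of the 8 arrays, by group; circles are replicate 1 (Cy3) and squares replicate 2 (Cy5). Olfr1232, Krt80, Lep and Slc4a1 lie highest on both AX+ME arrays, and Trh and Pomc lie highest on both SED arrays.

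Lep, the gene of leptin, lay near background. Its level was -6.54 and -6.20 in SED, below the limit of reliable detection on each array, and -5.51 and -5.41 in AX+ME, where each array detected it. It was at -6.32 and -5.95 in ME and at -6.07 and -6.13 in AX, so both AX+ME samples were above the other 6. The difference from SED was 0.91 ± 0.124 (log2, SE; adjusted p = 0.0511), and with the SED level taken at the detection limit AX+ME was at least 1.69-fold higher. Lep passed the filter on dim probes through AX+ME alone, the group where it was high. That favours a higher value, so the SE and adjusted p are no independent support for a difference. Against ME the difference was 0.68 (adjusted p = 0.208), and against AX 0.64 (adjusted p = 0.295). The value depended on the background correction: under normexp it was 0.07, which is 0.29 above the median of all genes there. The normexp offset of 50 is large beside signals this dim, so that value is partly set by the offset. The adjusted p of Lep lay between 0.0508 and 0.483 over the alternatives.

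The bases before the start of Lep are shown because leptin is the gene the series is about. In the RefSeq promoter table (GRCm38.p6), the 250 bases before the start lie at chr6:29059971-29060220, plus strand, and capitals mark a match to the C/EBP motif, which CEBPA binds in fat cells.
Lep: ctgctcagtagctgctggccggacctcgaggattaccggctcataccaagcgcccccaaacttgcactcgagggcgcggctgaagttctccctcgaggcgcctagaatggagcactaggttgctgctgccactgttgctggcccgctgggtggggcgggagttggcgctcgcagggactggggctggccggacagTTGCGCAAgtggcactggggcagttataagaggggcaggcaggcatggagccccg
The match, TTGCGCAA, starts 55 bases before the start of the gene. Searched on both strands, that motif was found in 54 of 32851 promoters of the table (0.164%). The STAT motif TTCCNGGAA, present in 0.913% of all promoters, was in none of the 24 promoters that the table holds for 18 of the leptin signalling genes. A match is a description of letters and does not show a binding site.

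The receptor and the signalling chain did not share the direction of Lep. Lepr was at 1.61 and 1.07 in SED and at 1.24 and 0.91 in AX+ME, a difference of -0.27 ± 0.071 (log2, SE; adjusted p = 0.088), and the groups overlapped. Its other probes gave -0.08 and -0.67, and without SED replicate 1 the difference was -0.16. Jak2 differed by -0.24 (adjusted p = 0.0765) and Socs3 by -0.23 (adjusted p = 0.0634), with the AX+ME samples below both SED samples for each. Stat3 differed by -0.17 (adjusted p = 0.108), while a second Stat3 probe gave 0.29, so its direction is not settled. Ptprb, a receptor phosphatase of endothelial cells, differed by -0.37 (adjusted p = 0.0511), Ptpn2, a phosphatase that acts on Jak and Stat proteins, by -0.33 (adjusted p = 0.0533), and Irs2, an adaptor of the insulin receptor, by -0.32 (adjusted p = 0.0588). Over the 20 measured leptin signalling genes, 4 were higher and 13 lower in both dyes (28.7% and 42.2% of all genes), none passed the adjusted threshold, and the median was -0.16 against -0.04 for all genes. Lep is among the 4. The list is wider than the chain from Lepr to Stat3: its lowest member is Ptprb, the endothelial phosphatase. Of the 19 well above background on all 4 arrays, 3 were higher and 13 lower, with a median of -0.17.

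Genes of the choroid plexus, the epithelium in the ventricles that makes cerebrospinal fluid, were lower in AX+ME. Of 23 measured, 21 were lower and 1 higher in both dyes (42.2% and 28.7% of all genes). At an unadjusted p below 0.05, 18 were lower (20.7% of all genes were), none passed the adjusted threshold, and the median difference was -0.46. Kcne2, a potassium channel subunit, was at 1.33 and 1.56 in SED and at 0.64 and 0.86 in AX+ME, a difference of -0.69 ± 0.049 (log2, SE; adjusted p = 0.0511). The groups did not overlap. F5, coagulation factor V, was at -0.05 and -0.18 in SED and at -0.72 and -0.79 in AX+ME, a difference of -0.64 ± 0.042. Otx2, the transcription factor that specifies choroid plexus, was at 1.05 and 1.08 in SED and at 0.40 and 0.54 in AX+ME, a difference of -0.60 ± 0.046. For both the adjusted p was 0.0511 and all AX+ME values lay below the SED values. Ecrg4, a secreted peptide precursor, differed by -0.67, Steap1, a metalloreductase, by -0.61, Slc39a4, a zinc importer, by -0.60, and Folr1, the folate receptor that carries folate into the fluid, by -0.54, each with an adjusted p of 0.0511. Kl, which encodes Klotho, differed by -0.34 and Clic6, a chloride channel protein, by -0.45. Ttr, transthyretin, the main carrier of thyroid hormone made there, was saturated on all 4 arrays and differed by -0.32 in Cy3 and 0.26 in Cy5. The exception among the measured genes, higher in both dyes, was Slc5a5, an iodide transporter, at 0.17.

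The single treatments share SED with this comparison and are given side by side. The summed signal of the choroid plexus genes (log2) was 6.35 and 6.09 in SED, 5.95 and 5.91 in AX+ME, 6.09 and 5.89 in ME, and 6.22 and 6.08 in AX. This sum of linear signals includes Ttr, which was saturated and differed in sign by dye, so it does not compare the groups reliably. F5 was at -0.72 and -0.80 in ME and at -0.21 and -0.31 in AX, and Kcne2 at 0.80 and 1.06 in ME and at 1.06 and 1.39 in AX. The choroid plexus median was -0.08 for AX+ME against ME and -0.42 against AX. In bulk tissue, fewer cells of a type and less RNA per cell cannot be told apart. Genes of the ciliated ependymal cells that line the ventricles were lower in both dyes for 12 of 16 (42.2% of all genes were) and higher for 1, with a median of -0.20. Tekt1, a protein of ciliary microtubules, differed by -0.28 (adjusted p = 0.0533) and Rsph1, of the ciliary radial spoke, by -0.27 (adjusted p = 0.0543). Other cells at the borders of the tissue were near the median of all genes: -0.05 for 12 genes of meningeal fibroblasts, 0.01 for 9 of pericytes and smooth muscle, and -0.04 for 12 of brain endothelium. Whether the amount of plexus tissue in the samples differed was not tested.

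**Figure D3:**
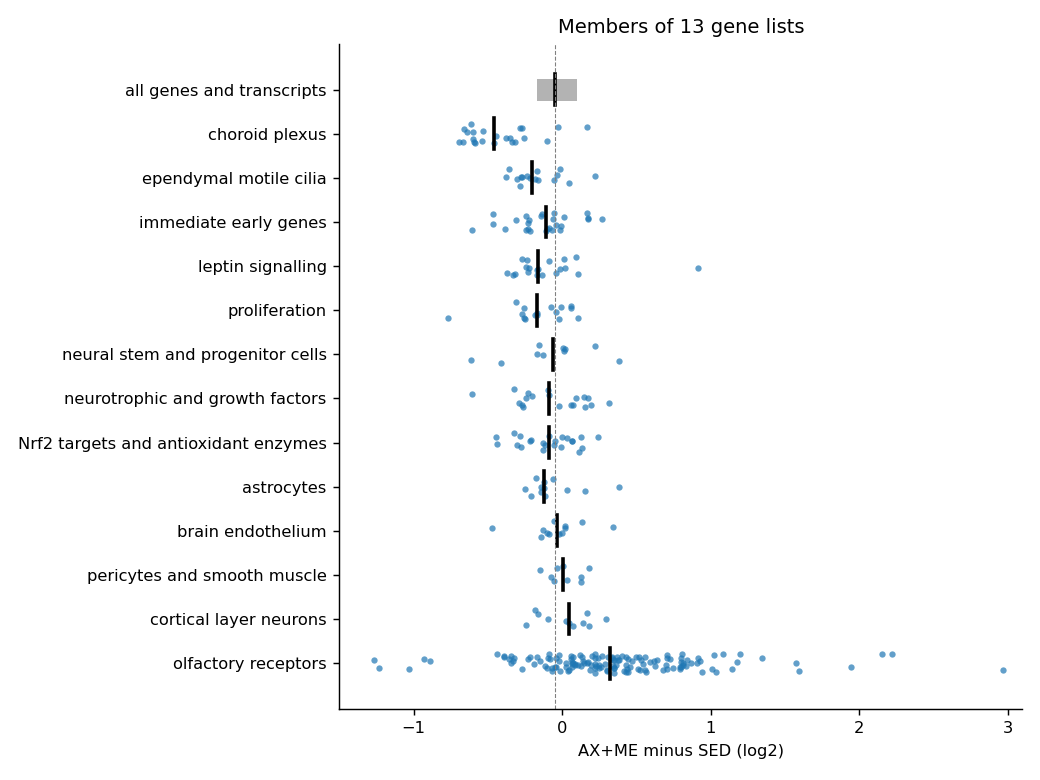
Differences between AX+ME and SED (horizontal axis, log2) of the measured members of 13 gene lists, with a point for each gene and a black bar at the list's median; the grey box spans the interquartile range of all 17770 genes and the dashed line is their median, -0.04. The choroid plexus genes lie furthest to the left (median -0.46) and the 142 olfactory receptors that passed the filter furthest to the right (median 0.32), 18 of which passed it through AX+ME and not SED.

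Trh, which encodes thyrotropin-releasing hormone, had one of the largest differences. It was at -1.64 and -1.92 in SED and at -3.07 and -3.10 in AX+ME, with no overlap, and the difference was -1.30 ± 0.082 (log2, SE; adjusted p = 0.0511). In ME it was at -3.34 and -3.48 and in AX at -3.54 and -3.84, so the SED samples lay above the other 6. Pomc, the precursor of ACTH and of melanocortins, was at 0.39 and 0.26 in SED and at -0.36 and -0.40 in AX+ME, a difference of -0.70 ± 0.052 (adjusted p = 0.0511). It was lower still in ME, at -0.80 on both arrays. Gh, growth hormone, was at -4.72 and -4.06 in SED and at -3.67 and -3.80 in AX+ME, a difference of 0.65 (adjusted p = 0.138), and at -6.12 and -5.92 in ME. The difference was 0.30 without SED replicate 1 and 1.01 without SED replicate 2. These hormones are made mainly in the hypothalamus or the pituitary gland, outside the hippocampus. Of the 9 measured hypothalamic genes, 6 were lower and 3 higher in both dyes (42.2% and 28.7% of all genes), with a median of -0.30. Rax, a transcription factor of hypothalamic tanycytes, differed by -1.68 near background, whereas Oxt, oxytocin, differed by 0.41 (adjusted p = 0.0644) and Ghrh, the releasing hormone of growth hormone, by 0.51 (adjusted p = 0.0604). Under normexp Gh, Oxt and Ghrh were at 0.15, 0.08 and 0.17, and Rax at -0.91. The summed signal of the hypothalamic list (log2) was 1.00 and 1.05 in SED and 0.85 on both AX+ME arrays. Trh is in this sum of linear signals, so the sum largely restates the difference of Trh and does not describe the list as a whole. Whether neighbouring tissue in the samples played a part was not tested.

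Dopamine receptor genes, which are abundant in the striatum, had differences of opposite sign. Drd1 was at -1.94 and -1.95 in SED and at -2.33 and -2.34 in AX+ME, a difference of -0.39 ± 0.049 (log2, SE; adjusted p = 0.0511). Drd2 was at -4.70 and -4.51 in SED and at -3.84 and -3.91 in AX+ME, a difference of 0.73 ± 0.178 (adjusted p = 0.0784) that was 0.14 under normexp. Neither pair of groups overlapped. Of 11 striatal genes, 4 were higher and 5 lower in both dyes (28.7% and 42.2% of all genes), with a median of -0.03.

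Neurons switch on immediate early genes within minutes of activity. Of 27 measured, 15 (55.6%) were lower and 4 higher in AX+ME in both dyes, against 42.2% and 28.7% of all genes. At an unadjusted p below 0.05, 13 were lower (48.1%, against 20.7% of all genes), none passed the adjusted threshold, and the median was -0.11 against -0.04 for all genes. Over all genes the share lower in both dyes varied with brightness, from 27.6% to 60.8% across deciles of genes by mean signal. The early genes were not compared with genes of like brightness. Egr2, a zinc finger transcription factor, was at -0.78 and -0.79 in SED and at -1.39 on both AX+ME arrays, a difference of -0.61 ± 0.071 (log2, SE; adjusted p = 0.0511). It was at -0.98 and -0.95 in ME and at -1.37 and -1.16 in AX, so the AX+ME samples were the lowest, close to the lower AX sample. Jun, a subunit of the AP-1 factor, was at 3.99 and 3.92 in SED and at 3.44 and 3.54 in AX+ME, a difference of -0.47. Klf4, a zinc finger factor, was at 0.15 and 0.25 against -0.31 and -0.21, a difference of -0.46. Egr1, the sister gene of Egr2, was at 3.76 and 3.87 against 3.45 and 3.56, a difference of -0.31. In these 3 genes the groups did not overlap, and the adjusted p was 0.0511 each time. Fos differed by -0.24 (adjusted p = 0.0741) and Gadd45g, a stress-induced growth arrest gene, by -0.38 (adjusted p = 0.0511). Nptx2, a neuronal pentraxin secreted at excitatory synapses, was the member furthest the other way, at 0.27 (adjusted p = 0.0814), and at 0.0018 under normexp. The summed signal of the list (log2) was 6.71 on both SED arrays, 6.48 on both AX+ME arrays, 6.58 and 6.57 in ME, and 6.50 and 6.51 in AX.

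The promoter of Egr2 is shown because its difference is the largest of the list and because many early genes carry CArG boxes, the letters that serum response factor binds. From RefSeq, GRCm38.p6, the 250 bases before 1 of the 5 starts listed for Egr2 lie at chr10:67537619-67537868, plus strand, with the CArG box in capitals.
Egr2: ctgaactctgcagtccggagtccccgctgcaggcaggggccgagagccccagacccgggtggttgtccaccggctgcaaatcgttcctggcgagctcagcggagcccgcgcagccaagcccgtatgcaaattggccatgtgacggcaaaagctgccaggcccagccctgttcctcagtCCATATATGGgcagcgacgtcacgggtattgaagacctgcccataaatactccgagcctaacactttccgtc
The box, CCATATATGG, starts 72 bases before that start. A CArG box (CC, 6 bases that are each A or T, GG; searched on both strands) was in 4 of the 5 Egr2 promoters and in no promoter of the other 21 early genes in the table. The 4 hold 2 distinct boxes: CCATATATGG in 3 whose windows overlap, and CCTTTTTTGG in 1 whose window does not overlap those. Over all promoters a CArG box was in 482 of 32851 (1.47%). The cAMP response element TGACGTCA was in the promoters of Btg2 and Dusp1, among 22 genes, and in 1.55% of all promoters. AP-1 (TGACTCA, 4.46% of all promoters), Egr (GCGTGGGCG, 0.536%) and STAT motifs were in none of the 28 promoters of these genes. No match says only that these letters are not in this window.

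Counts for genes of adult neurogenesis are read against the 28.7% of all genes that were higher and the 42.2% that were lower in both dyes. Of 10 genes of neural stem and progenitor cells, 2 were higher and 5 lower in both dyes, with a median of -0.06. Gfap, an intermediate filament of astrocytes and of radial stem cells, was at 1.82 and 2.22 in SED and at 2.30 and 2.51 in AX+ME, a difference of 0.38 (adjusted p = 0.0752) that was 0.12 under normexp and 0.25 without SED replicate 1. Its other 2 probes, below column 70, gave -0.0026 and -0.19. Eomes, a factor of intermediate progenitors, was at -4.53 and -4.85 in SED and at -5.47 and -5.13 in AX+ME, a difference of -0.61 (adjusted p = 0.0913), and of -0.34 without AX+ME replicate 1. Of 7 genes of immature neurons, 2 were higher and 3 lower. These shares, like those of the 10 progenitor genes, lay near those of all genes. Of 16 proliferation genes, 3 were higher and 10 lower, with a median of -0.17, which was -0.06 from column 80 and -0.02 from column 90, against -0.03 for all genes in both. Pcna, the sliding clamp of DNA polymerase, differed by -0.31 and Mcm4, a subunit of the replicative helicase, by -0.25, both with an adjusted p of 0.06. Of 7 dentate granule cell genes, 3 were higher and 3 lower, with a median of 0.02. No gene of these lists passed the adjusted threshold.

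Growth factors and synaptic genes were mixed. Of 19 neurotrophic and growth factor genes, 7 (36.8%) were higher and 10 (52.6%) lower in both dyes, against 28.7% and 42.2% of all genes. Bdnf, a neurotrophin long studied in exercise, was at 1.504 and 1.58 in SED and at 1.23 and 1.39 in AX+ME, a difference of -0.23 ± 0.052 (log2, SE; adjusted p = 0.0719), without overlap. Igf1, insulin-like growth factor 1, differed by -0.33 (adjusted p = 0.0695), although another of its probes gave 0.24, and Vegfb, a vascular growth factor, by 0.18 (adjusted p = 0.0752). Of 20 genes of synaptic plasticity, 6 (30%) were higher and 9 (45%) lower, near the shares of all genes. NMDA receptor subunits differed in sign: Grin1 was at 0.42 (adjusted p = 0.0702) and Grin2a at -0.36 (adjusted p = 0.0511), with 0.22 on a second Grin2a probe below column 70. Shank3, a scaffold of excitatory synapses, was at 0.42 (adjusted p = 0.0706). Under normexp Grin1 was at 0.21, Shank3 at 0.24 and Vegfb at -0.02.

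Antioxidant genes were mixed. Of 23 Nrf2 targets and antioxidant enzymes, 7 (30.4%) were higher and 12 (52.2%) lower in both dyes, against 28.7% and 42.2% of all genes, and the median was -0.09. Sod2, the superoxide dismutase of mitochondria, was at 4.79 and 4.81 in SED and at 4.49 and 4.47 in AX+ME, a difference of -0.32 ± 0.041 (log2, SE; adjusted p = 0.0511). It was at 4.56 on both ME arrays and at 4.47 and 4.48 in AX. Sod3, the extracellular enzyme, differed by -0.28 (adjusted p = 0.0533), and Nfe2l2, which encodes Nrf2 itself, by -0.28 (adjusted p = 0.0649). Hmox1, a classical Nrf2 target, differed by 0.11 (adjusted p = 0.154). Of 15 genes of carotenoid and retinoid handling, 3 (20%) were higher and 6 (40%) lower. Scarb1, the receptor that takes up carotenoids, differed by 0.16 (adjusted p = 0.137), which turned to -0.18 under normexp. A second Scarb1 probe, below column 70, gave 1.78, so its size and direction are not settled.

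Stress, energy and immune genes gave similar small values. Their counts are read against the 28.7% of all genes that were higher and the 42.2% that were lower in both dyes. Among 16 heat shock and unfolded protein response genes, 4 were higher and 7 lower. The mitochondrial chaperonins Hspd1 (-0.30, adjusted p = 0.0524) and Hspe1 (-0.29, adjusted p = 0.0512), which work as a pair, were lower, while Hyou1, a chaperone of the endoplasmic reticulum, was at 0.54 (adjusted p = 0.0533). Of 15 exercise and energy sensing genes, 2 were higher and 9 lower. Slc16a1, a lactate transporter, was at 0.29 (adjusted p = 0.0533) and Sirt1, a deacetylase, at -0.29 (adjusted p = 0.0604). Under normexp Hyou1 was at 0.19 and Slc16a1 at 0.07. Of 13 microglial genes, 3 were higher and 7 lower, with a median of -0.13. Of 12 astrocyte genes, 2 were higher and 8 lower. Of 14 genes of CA pyramidal neurons 3 were higher and 8 lower, of 13 glucocorticoid targets 1 and 9, of 13 circadian clock genes 0 and 8, and of 11 inflammation genes 3 and 7, with medians between -0.24 and -0.08. The -0.24 is that of the inflammation genes, which over all 15 without the filter was -0.015. The 38 respiratory chain genes differed by dye, with a median of -0.32 in Cy3 and 0.16 in Cy5, as did the 13 housekeeping genes, at -0.32 and 0.10.

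Other genes well above background that were 1.5-fold lower in both dyes served unlike roles. Unc13c, a synaptic vesicle priming protein, was at -0.61 and -0.52 in SED and at -1.33 and -1.26 in AX+ME, a difference of -0.73, and was at -1.36 and -1.40 in AX. Ifi44, an interferon-induced gene, differed by -0.73, Dtl, an adaptor of a ubiquitin ligase in DNA replication, by -0.66, and Krt23, a type I keratin, by -0.72. The adjusted p was 0.0511 for these 4. Bcl2l15 differed by -1.19 but its SED samples were far apart (-4.54 and -3.28), and its adjusted p was 0.117. Without SED replicate 2 the difference was -0.62. On the higher side, Slc4a1, the anion exchanger of red cells, was at -3.92 and -3.94 in SED and at -3.19 and -3.11 in AX+ME, a difference of 0.77 (adjusted p = 0.0511). Its level in ME, -3.86 and -3.98, and in AX, -4.01 and -3.82, spanned that of SED. The adult globins Hbb-bs and Hbb-b2 were at -0.11 and -0.21, without passing the threshold. Another globin gene, Hbb-bh1, was at 0.39, and at 0.04 under normexp. Of 8 measured globin and red cell genes, 2 were higher and 3 lower in both dyes (28.7% and 42.2% of all genes). Krt6b, a keratin of stressed epidermis, was at 0.91 and Krtap4-9, a hair keratin-associated protein, at 0.96, both with an adjusted p of 0.0511. Under normexp Slc4a1 was at 0.30, Krt6b at 0.40 and Krtap4-9 at 0.24. Slco1a1, an organic anion transporter, differed by 0.88 in Cy3 and 2.87 in Cy5, which rests on 1 AX+ME sample (-4.85 and -2.54).

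Olfactory receptor genes encode odorant receptors of the nasal epithelium, and most lay near background here. Over all 649 on the arrays from column 70, without a filter, 22.3% were higher and 6.47% lower in both dyes, against 24.4% and 33.7% of all 24510 unfiltered genes, and their median difference was 0. That median is exactly 0 in each dye because many of these probes lie on the log2 floor of -8 in both groups. Such ties count as neither higher nor lower, so these values do not measure a shift of the family. The filter on dim probes kept 142, of which 18 were well above background on both AX+ME arrays but not on both SED arrays, and 14 the reverse. Passing through AX+ME alone favours a higher value, so the 142 are no measure of the family. Among the 106 well above background on all 4 arrays, 72 (67.9%) were higher and 10 (9.43%) lower in both dyes. Of all 16835 genes of that class, 28.8% were higher and 42.4% lower. Of the 106 receptors, 11 were 1.5-fold higher and 0 1.5-fold lower (0.624% and 0.22% of the class), and the median was 0.28. Olfr166 was at -4.15 and -4.24 in SED and at -3.21 and -3.01 in AX+ME, a difference of 1.09 ± 0.088 (log2, SE; adjusted p = 0.0511), and Olfr577 differed by 0.82 (adjusted p = 0.0511). Under normexp these were 0.49 and 0.17. The median of the receptors was 0.22 over those well above background on all 8 arrays. For the filtered 142 it was 0.32, against -0.01 under normexp (0.21 above the median of all genes there) and 0.18 after quantile normalization.

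Over all genes the direction varied with brightness. In the dimmest decile of genes by mean signal 33.9% were higher and 29.9% lower in both dyes, and in decile 9 21.0% were higher and 60.8% lower. Of the 142 olfactory receptors that passed the filter, 59 lay in the dimmest decile and 36 in the next. The part of the probes' brightness in the olfactory receptor result, or in that of any other list, was not tested. The 2822 intergenic transcripts named by coordinates had a median of 0.05, with 1205 (42.7%) higher and 780 (27.6%) lower in both dyes, against 28.7% and 42.2% of all genes.

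**Figure D4:**
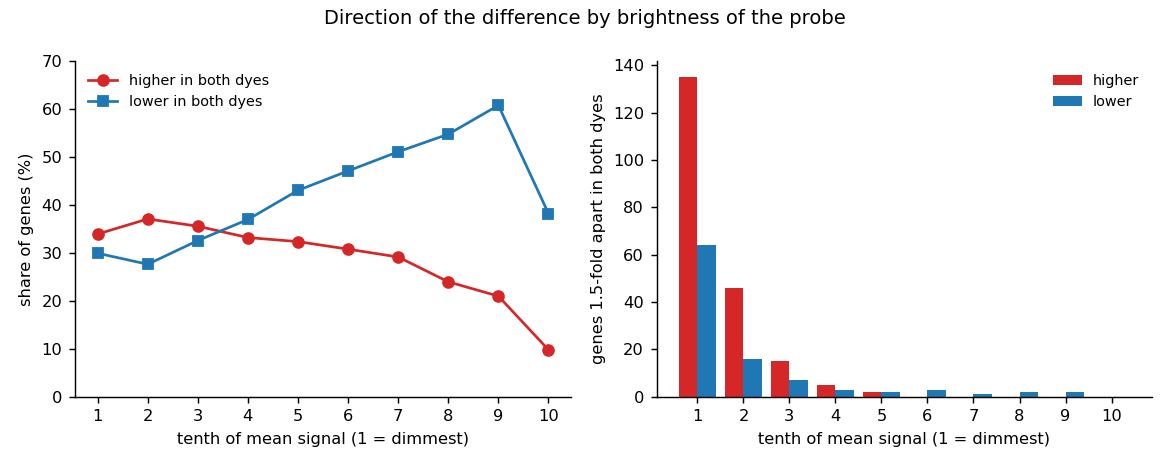
Left: share of genes (%) higher or lower in AX+ME than in SED in both dyes, for deciles of genes ordered by mean signal (1 is the dimmest). Right: number of genes at least 1.5-fold higher or lower in both dyes in the same deciles; 135 of the 203 higher genes and 64 of the 100 lower genes lie in the dimmest decile.

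Among probes near background, with a level in 1 group only, Olfr661 was at least 3.37-fold higher in AX+ME (-4.78 and -4.14, against -7.12 and -7.74 in SED), and V1ra8, a vomeronasal receptor, at least 3.55-fold. Olfr139 was at least 2.79-fold higher and Olfr1222 at least 1.96-fold. On the lower side, Vdr, the vitamin D receptor, was at -3.00 and -5.28 in SED and well above background on neither AX+ME array, at least 3.37-fold lower, with its SED samples far apart. Mael, a germline gene, was at least 1.17-fold lower. The adjusted p of these genes lay between 0.0511 and 0.0623. Olfr661, Olfr139 and Olfr1222 passed the filter on dim probes through AX+ME alone, the group where they were high. That favours a higher value, so their adjusted p is no independent support for a difference. V1ra8 passed the filter without SED, and Vdr and Mael passed it without AX+ME. This can favour the direction seen, so the same limit holds for their adjusted p.

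Against ME, 3 transcripts (0.0169%) passed the adjusted threshold, all higher in AX+ME: Krt80 by 1.101 ± 0.045 (log2, SE; adjusted p = 0.0375) and 2 intergenic transcripts without a symbol, while 2402 genes (13.5%) had an unadjusted p below 0.05. The intergenic ones include the transcript called against SED, with the same limit from the filter. Against AX, limma called 0 (0%), the smallest adjusted p was 0.148, and 1734 genes (9.76%) had an unadjusted p below 0.05. Olfr1232 differed from ME by 0.87 (adjusted p = 0.0796) and from AX by 1.00 (adjusted p = 0.148). Slc4a1 differed by 0.76 from each of them (adjusted p = 0.131 and 0.19), whereas Trh differed from ME by 0.33 and from AX by 0.61, in the direction opposite to that against SED. These comparisons share the AX+ME samples with the one against SED.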

How the data were processed

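Hippocampal RNA was measured on 8 arrays of 1 Agilent slide, 1 sample per array. Per the submitters' processing notes, scanner files came from Agilent Feature Extraction 11.0.1.1. The deposited spot intensity is linear, background-subtracted and detrended within the array, per the file headers, with no scaling from array to array. Rounded, it equals the deposited series table. Signals of the sample's own dye, over the 75th percentile of their array, were put on a log2 scale with a floor at -8, from array column 70 on. Control spots and 20 probes with a non-uniform spot were left out. Probes had to exceed background clearly on both arrays of at least 1 group (21919 of 32411 did), and the brightest probe stood for a gene. Symbols came from RefSeq by accession. Where no array of a group detected a gene, the text prints a lower bound ("at least"), against the lowest signal well above background or its own.

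All 8 samples entered 1 limma model (limma 3.58.1, R 4.3.3) of group and dye, with 3 residual and 1.64 prior degrees of freedom and two-sided p-values, adjusted by Benjamini-Hochberg over 17770 genes. The fit was run on data simulated from the model itself, to check that planted differences were estimated at their size. Such a run does not assess the spread between these samples. Dye and replicate number coincide, so the dye term is the replicate block; it rests on the labels. The named genes are those past the adjusted threshold, the 15 highest and lowest well above background and 6 near it, by the smaller within-dye difference, the leptin genes of the title, and up to 6 of each of 39 lists, from which the text takes examples; the motifs for C/EBP and STAT were added later. Members and lists were chosen with earlier results of these data known. The planned normexp correction used the median spot signal, as the files hold no mean, with an offset of 50 added before scaling. Alternatives covered scaling, background, array columns, filters, probes, the model and each array left out.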

Additional observations from a re-analysis of the deposited data

How the results depend on the processing

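The precision is limited by 2 arrays per group, and a signal close to background has little. The count of genes past an adjusted p of 0.05 was 3 higher and 0 lower. It was 88 and 6380 with normexp background correction, which lowered the median of all genes to -0.22; 0 higher after quantile normalization and with SED and AX+ME only; 1001 and 867 with all array columns; 165 and 360 with no filter on dim probes; 532 and 1025 with probes well above background on all 8 arrays; and 1083 and 2380 with an intensity trend and robust eBayes. Leaving out 1 array at a time gave 0 higher each time and 0 to 1 lower. Without the replicate block, that is without the dye term, it was 3 and 0, and Krt80 then missed the threshold (adjusted p = 0.0545). The cause of these changes was not tested.

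The count of genes 1.5-fold higher or lower on both dyes, 203 higher and 100 lower, became 2 higher under normexp, 115 and 212 after quantile normalization, 1071 and 300 with all columns, 456 and 283 without the dim filter, and 74 and 32 with probes well above background on all 8 arrays. At 2-fold it was 41 and 17, and at a lower threshold (log2 difference of 0.32) 649 and 658. The other alternatives, with floors at -7 and -10 added after seeing the data, stayed within 1.5 times of both counts.

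Of 2800 values of 125 named genes over 23 alternatives, 16 changed sign. Under normexp, Cartpt was at -0.029, Adora2a at -0.059, Acta2 at -0.038, Vegfb at -0.021 and Scarb1 at -0.18. With all columns Cep41 was at 1.01, Ptpn2 at 0.011, Gfap at -0.0026 and Slc32a1 at -0.24. Csf1r was at 0.23 from column 90, and with the mean of probes Stat3 was at 0.063 and Egfr at 0.060. Ttr, saturated, was at 0.14 after quantile normalization, at 0.00038 with the percentile over detected probes, and between -0.23 and 0.18 when 1 array was left out, turning without SED replicate 1 (0.15) and without AX+ME replicate 1 (0.18).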
